A study of Mus musculus with 18 samples.

Results

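The RNA of 9 transcription regulators of kidney development, *Pax8*, *Pax2*, *Lhx1*, *Osr1*, *Osr2*, *Six2*, *Eya1*, *Sall1* and *Foxd1*, was measured in the kidneys of young adult mice whose dams ate either low-protein (LP) food or food with a normal protein content (NP). The 9 genes were taken by name from the 78239 genes in the count tables, and their Ensembl identifiers were read from the GENCODE mouse annotation. Each of the 18 libraries came from the kidney RNA of a separate mouse (males: 5 LP and 5 NP; females: 5 LP and 3 NP). Depth ranged from 14050486 to 23562411 reads counted on genes per library, and 12665 genes had at least 10 counts in all 18 libraries. The comparisons ask whether the diet of the dam left a difference in the RNA of these genes in the grown offspring, and whether it did so in both sexes.

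All mice were wild-type CD-1, an outbred stock. LP dams received a diet with 8% protein and NP dams one with 18% protein, from mating through gestation and lactation, and all pups were weaned at 3 wk onto the NP diet. All mice received cationic ferritin, an iron-containing protein tracer that labels glomeruli, before their kidneys were collected at 6 wk of age. Males were collected 90 min and females 24 h after the last injection, so that sex and time from injection cannot be told apart. RNA came from part of the left kidney by the study's methods, and from whole kidney by the series description. LP female 1, LP female 2 and NP female 3 stand apart from the other 15 libraries, with summed interferon response genes at 118 to 186 CPM (counts scaled to a common library total) against 594 to 3097 and summed glucocorticoid response genes at 237 to 450.4 CPM against 486 to 1271. In bulk tissue of this kind, fewer cells of a type and less RNA per cell cannot be told apart.

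The 9 genes act in the embryo in the tissues that build the kidney. PAX2 and PAX8, related paired-box factors, specify the nephric lineage, and LHX1, a LIM homeodomain factor, is needed for the nephric duct and for patterning of the early nephron. OSR1 marks the intermediate mesoderm, SIX2 holds the cap mesenchyme in a self-renewing state, EYA1 and SALL1 act with it in the same progenitors, and FOXD1 marks the progenitors of the renal stroma. In mice the cap mesenchyme is used up within days of birth, so an adult kidney has no nephron progenitors.

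The stretches just before the annotated start sites were read from GRCm39 (the canonical transcript of GENCODE vM39), with 250 bases for each gene. They are shown for *Pax8* and *Foxd1*, the members with the smallest unadjusted p-values for diet, and for *Lhx1*, whose start lies opposite an antisense gene. Each runs 5′ to 3′ on the strand of the gene and ends 1 base before the start, and capitals mark a CCAAT box (CCAAT) or a GC box (GGGCGG) on either strand.
*Pax8*, chr2:24365618-24365867, minus strand: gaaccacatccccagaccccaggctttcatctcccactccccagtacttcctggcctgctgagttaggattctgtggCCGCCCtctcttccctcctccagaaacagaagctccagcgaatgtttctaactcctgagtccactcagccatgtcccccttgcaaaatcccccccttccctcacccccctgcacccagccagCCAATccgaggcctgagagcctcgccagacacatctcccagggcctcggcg
*Foxd1*, chr13:98490500-98490749, plus strand: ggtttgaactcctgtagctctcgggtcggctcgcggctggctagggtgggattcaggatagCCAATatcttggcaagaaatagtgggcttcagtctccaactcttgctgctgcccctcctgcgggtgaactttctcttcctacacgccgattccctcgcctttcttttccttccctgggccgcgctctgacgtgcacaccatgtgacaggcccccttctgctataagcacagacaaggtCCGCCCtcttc
*Lhx1*, chr11:84416369-84416618, minus strand: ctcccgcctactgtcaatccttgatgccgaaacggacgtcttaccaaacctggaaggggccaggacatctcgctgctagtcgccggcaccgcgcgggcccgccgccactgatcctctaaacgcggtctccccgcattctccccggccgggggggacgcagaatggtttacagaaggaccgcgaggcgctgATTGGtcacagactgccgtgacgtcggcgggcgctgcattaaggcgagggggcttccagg
No TATAAA was found in these stretches for any of the 9 genes, against 11.9% of the 21723 protein-coding genes searched in the same way. CCAAT was present in 6 of the 9, against 36.5% of all, and GGGCGG in 4 of the 9, against 36.3% of all. All 250 bases shown for *Lhx1* are also exon of *Lhx1os*, a long noncoding RNA on the other strand, whereas those shown for *Pax8* and *Foxd1* held no annotated exon. Among the stretches not shown, all 250 bases for *Six2* and 67 for *Eya1* were annotated exon of the gene itself. The *Sall1* stretch held 93 bases of its own exons and 210 of exons of *Gm3134*.

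Levels differed widely among the 9 genes, and 3 of them were below the minimum count of the edgeR test in every comparison. On the scale that allows genes to be compared, the count normalized for library size and divided by the kilobases of exon, the median over 18 libraries was 190.8 for *Sall1*, 178 for *Pax8*, 94.0 for *Pax2*, 53.4 for *Lhx1*, 27.9 for *Osr2*, 4.21 for *Foxd1*, 0.517 for *Osr1*, 0.112 for *Eya1* and 0 for *Six2*. *Sall1* was above *Pax8* in 11 of 18 libraries, so that the order of these neighbours was not fixed. The median per kilobase was 288.0 for *Sall1* and 182 for *Pax8* in females, and 141.0 and 163.5 in males, where *Pax8* was the higher. From *Pax8* down to *Foxd1*, each gene was above the next in 18 of 18 libraries, although the ranges of neighbours from *Pax8* to *Osr2* overlapped between libraries. The counts leave out reads that also fall on a gene of the other strand, 11.1% for *Pax8* and 33.2% for *Lhx1*. With those reads counted *Pax8* and *Lhx1* would stand higher, so the order holds only for the counts used. The cap mesenchyme genes lay at both ends of this order, *Sall1* among the highest 2 and *Eya1* and *Six2* at the bottom.

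**Figure D1:**
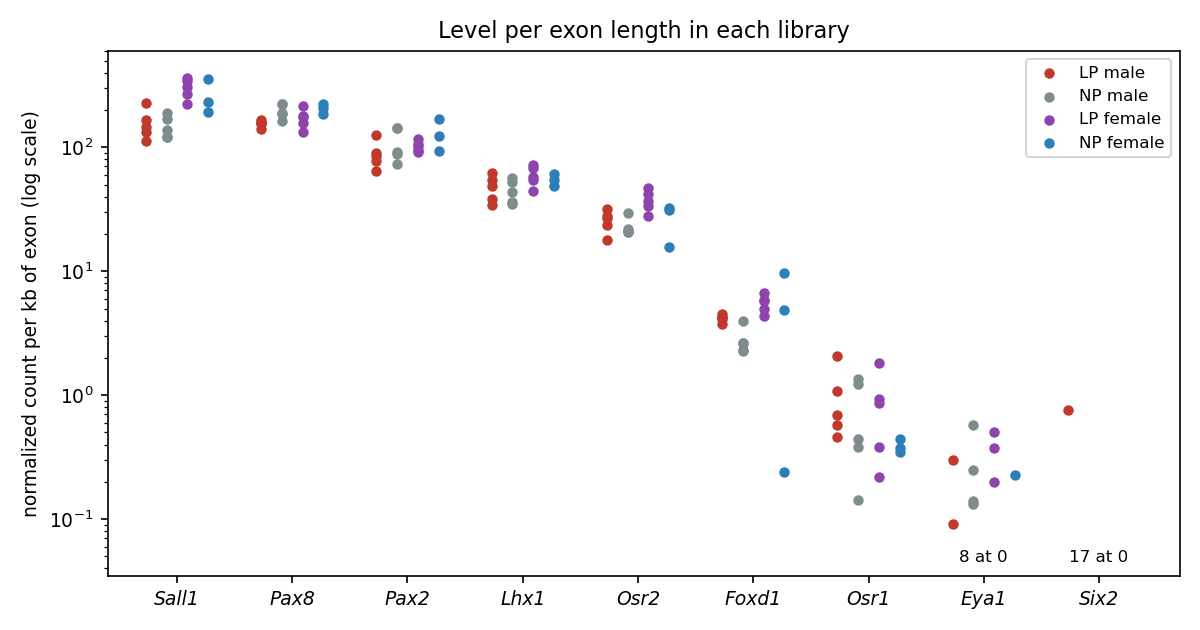
Level of each of the 9 genes in each of 18 libraries, as normalized count per kilobase of exon on a log scale, with 1 dot per library colored by group. Medians fall from 190.8 for *Sall1* to 4.21 for *Foxd1*, the 1 low *Foxd1* dot is NP female 3, and libraries with no read (8 for *Eya1*, 17 for *Six2*) are given as a number at the bottom.

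*Six2*, *Eya1* and *Osr1* fell below the minimum of 10 counts in every library that was required for the edgeR test. *Six2* had 2 reads in LP male 5 and 0 in the other 17 libraries, and 0 reads allow a level of up to 0.127 to 0.214 CPM depending on the library (3 counts, which covers counting error only). *Eya1* gave 0, 2, 0, 1 and 0 reads in LP males 1 to 5, 4, 2, 1, 1 and 0 in NP males, 4, 2, 0, 0 and 6 in LP females, and 0, 2 and 0 in NP females. At 25 reads in all and 10 of 18 libraries with any, a difference between groups was not detectable for *Eya1* at this depth.

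*Osr1*, the early marker of intermediate mesoderm, was seen in every library but reached 10 reads in 4 of 18. LP males 1 to 5 gave 3, 7, 6, 22 and 5 reads, and NP males gave 3, 3, 9, 1 and 11. LP females gave 19, 9, 2, 3 and 10 reads, and the 3 NP females gave 3 each. LP male 4 and LP female 1 were the highest, and the groups overlapped in each sex. An exact two-sided permutation test over mice on log2(normalized count + 1) gave p = 0.389 in males and p = 0.304 in females, where the smallest p it can give is 0.00794 and 0.0179.

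**Figure D2:**
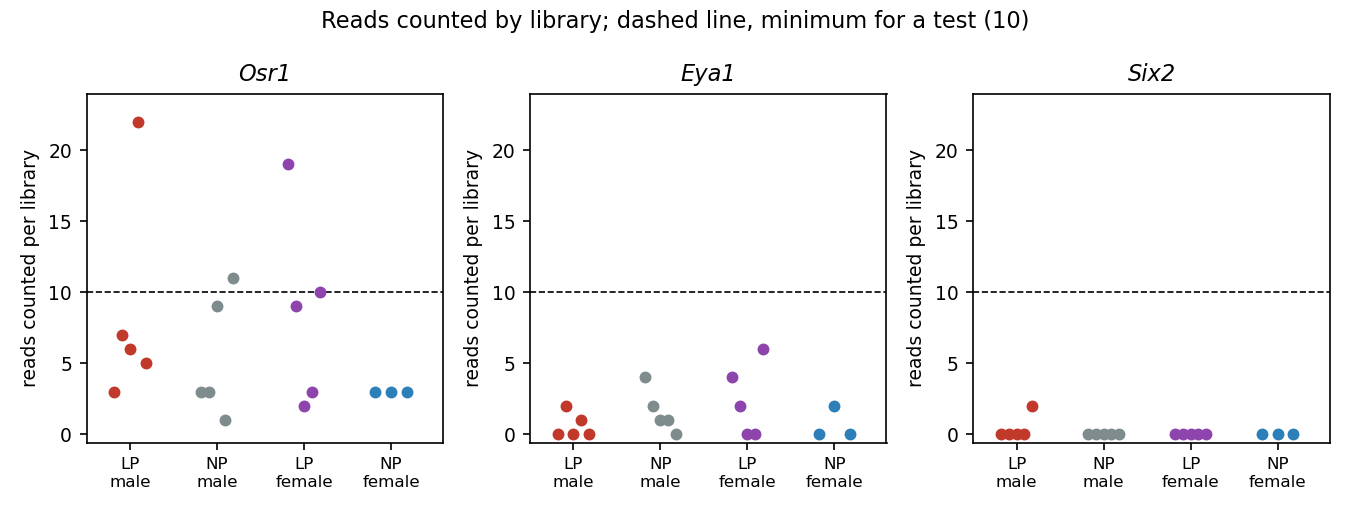
Reads counted per library for *Osr1*, *Eya1* and *Six2*, with 1 dot per library by group and a dashed line at 10 reads, the minimum for the edgeR test. *Osr1* lies on or above the line in 4 libraries, *Eya1* reaches at most 6 reads, and *Six2* has 2 reads in LP male 5 and 0 elsewhere.

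No member passed the test of diet in males or in females. By edgeR's quasi-likelihood test with Benjamini-Hochberg adjustment over all genes tested, 0 of 6 members tested were called in males, beside 0.0379% of 13181 genes (5 genes), and 0 of 5 in females, beside 0% of 13510 genes. At an unadjusted p under 0.05 there were 2 of 6 members in males, *Pax8* and *Foxd1*, beside 3.81% of genes, and 0 of 5 in females, beside 4.17%. With DESeq2, 0 members were called in either sex, beside 19 genes in males and 9 in females. No member had LP and NP libraries that did not overlap, beside 0.675% of genes tested in males and 2.96% in females.

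*Pax8*, which remains on in the tubule epithelium of the adult, had the smallest unadjusted p for diet among the 9. LP males 1 to 5 had 1013, 1186, 1126, 1123 and 1131 normalized counts, and NP males had 1370, 1339, 1620, 1175 and 1605. The LP males lay close together and below the NP males, with 1 overlap, LP male 2 above NP male 4. The means were 1116 ± 63.2 (SD, n = 5) in LP and 1422 ± 189 (SD, n = 5) in NP, and the fitted log2 fold change, LP minus NP, was −0.34 (SE 0.10; a ratio of 0.791). The unadjusted p was 0.00457 and the edgeR adjusted p was 1.00, so the difference did not pass over all genes. The exact permutation test gave p = 0.0159 in males, and leaving out each male library in turn kept the log2 fold change between −0.40 and −0.29 with no call.

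In females *Pax8* had 949.8, 1143, 1277, 1546 and 1295 normalized counts in LP mice 1 to 5 and 1497, 1602 and 1329 in NP mice. LP female 4 lay among the NP females and the other 4 lay below all of them. The means were 1242 ± 219 (SD, n = 5) and 1476 ± 138 (SD, n = 3), and the log2 fold change was −0.25 (SE 0.17; 95% interval −0.63 to 0.13; edgeR adjusted p = 0.886). The exact permutation test gave p = 0.143. The difference between the diet effects, females minus males, was 0.09 (SE 0.18; edgeR adjusted p = 0.986 for the interaction), which covers no difference within its 95% interval of −0.29 to 0.47.

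*Pax8* overlaps the noncoding gene *Gm13415* on the other strand, and the count table drops reads that fall on both. Such reads were 11.1% of the *Pax8* reads in the strand columns, from 3.44% to 14.3% per library. With those reads counted, the log2 fold change was −0.34 in males and −0.21 in females, with no call.

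*Pax2*, the other paired-box member, which is kept in the adult collecting duct, had the same sign in both sexes as *Pax8* with a wider spread. LP males had 415.0, 502, 583, 817 and 555 normalized counts, and NP males had 597, 939, 474, 576 and 928. NP males 2 and 5 and LP male 4 stood above the other males, and the groups overlapped. The means were 574 ± 150 and 703 ± 216 (SD, n = 5 each), with a log2 fold change of −0.28 (SE 0.22; 95% interval −0.76 to 0.20; edgeR adjusted p = 1.00). The value was −0.15 without NP male 2, −0.16 without NP male 5, −0.18 without LP male 1 and −0.45 without LP male 4, with no call.

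LP females had 592, 665, 690.1, 620.4 and 760.0 normalized counts of *Pax2* and NP females had 605, 1091 and 804. NP female 1 lay within the LP range and the other NP females above it. The log2 fold change was −0.32 (SE 0.20; 95% interval −0.76 to 0.12; edgeR adjusted p = 0.886), and the exact permutation test gave p = 0.294 in males and p = 0.214 in females. The female value was −0.05 without NP female 2 and −0.49 without NP female 1, with no call.

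*Lhx1*, the LIM homeodomain member, showed no separation by diet. LP males had 272, 237, 169, 214 and 150.1 normalized counts, and NP males had 158, 247, 192, 231 and 154. LP females had 253, 238, 316, 193 and 296 normalized counts, and NP females had 237, 268 and 215. The LP range covered the NP range in each sex. The log2 fold change was 0.09 in males (SE 0.19; 95% interval −0.33 to 0.51) and 0.11 in females (SE 0.20; 95% interval −0.34 to 0.57), and without LP male 1 the male value turned to −0.02.

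The *Lhx1* count leaves out a larger share of its reads than that of any other member. Of its reads in the strand columns, 33.2% lay on both *Lhx1* and *Lhx1os* and were dropped, from 18.6% to 37.5% per library, against 11.1% for *Pax8* and at most 0.276% for the remaining 7 members. With those reads counted, the log2 fold change for diet was 0.09 in males and 0.23 in females. The library was not directional, so reads of *Lhx1* and *Lhx1os* cannot be told apart where their exons overlap.

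*Sall1*, a zinc finger factor of the cap mesenchyme with the highest median of the 9 per kilobase over all libraries in the counts used, was not called for diet. LP males had 1546, 911, 768, 1135 and 989 normalized counts, and NP males had 933, 1141, 831, 1284 and 829. LP females had 1508, 1836, 2442, 2090 and 2310 normalized counts, and NP females had 1588, 2404 and 1317. LP male 1 was the highest male, and the diet groups overlapped in each sex. The log2 fold change was 0.10 in males (SE 0.19; 95% interval −0.30 to 0.51) and 0.20 in females (SE 0.24; 95% interval −0.33 to 0.73), and without LP male 1 the male value was −0.07. The female value was 0.51 without NP female 2 and 0.03 without NP female 3, with no call.

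*Osr2*, the odd-skipped factor related to *Osr1*, was measured at 104 to 409 reads per library. LP males had 215.0, 183, 160.1, 120.0 and 188 normalized counts, and NP males had 139, 141, 142, 148 and 198. NP males 1 to 4 fell within 10 normalized counts of each other, and NP male 5 stood above them. The log2 fold change in males was 0.18 (SE 0.17; 95% interval −0.20 to 0.55; edgeR adjusted p = 1.00).

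In females *Osr2* had 319.5, 284, 248, 189 and 226 normalized counts in LP mice and 106, 218 and 211 in NP mice. Of the LP females, 4 of 5 lay above all NP females, and NP female 1 lay below all other females. The means were 253 ± 50.7 (SD, n = 5) and 179 ± 62.7 (SD, n = 3), and the log2 fold change was 0.51 (SE 0.28; 95% interval −0.12 to 1.13; edgeR adjusted p = 0.886). The exact permutation test gave p = 0.381 in males and p = 0.0893 in females. Without NP female 1 the log2 fold change was 0.26.

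*Foxd1*, the stromal progenitor factor, was low but reached the minimum in every male library. LP males had 21.1, 22.8, 18.95, 21.55 and 20.8 normalized counts, from 17 to 28 reads, and NP males had 13.3, 11.4, 13.4, 11.7 and 20.0, from 10 to 20 reads. The 5 LP males lay above NP males 1 to 4, and NP male 5 lay within the LP range. The means were 21.0 ± 1.40 and 13.95 ± 3.50 (SD, n = 5 each), with a log2 fold change of 0.59 (SE 0.22; a ratio of 1.51), an unadjusted p of 0.0212 and an edgeR adjusted p of 1.00. The exact permutation test gave p = 0.0159. The value was 0.53 to 0.76 when each male library was left out in turn, with the largest without NP male 5 and an edgeR adjusted p of at least 0.719 in all of them. The unadjusted edgeR p was 0.142 with no filter on low counts (SE 0.40), 0.0409 with edgeR's own filter and 0.0474 with a replicate block. Across the male libraries the spread of *Foxd1* within a group was at or under that of counting alone, 0.178 times it in LP and 0.799 times it in NP (a ratio of 1 is counting error only).

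In females *Foxd1* was not tested, because 1 library decided whether it passed the minimum. LP females had 29.7, 21.8, 29.2, 25.02 and 33.7 normalized counts, and NP females had 49.0, 24.7 and 1.21, the last from 1 read in NP female 3. The other 7 female libraries had 24 to 48 reads. NP female 3 had under 10 counts in 173 of the 12838 genes with at least 10 in the other 17 libraries, against 2 to 74 genes in any other library, and *Foxd1* was 1 of 42 of these at 0 or 1 read. Without NP female 3 the log2 fold change for diet was −0.39 (SE 0.34; edgeR adjusted p = 1.00), and with all 8 females and edgeR's own filter it was 0.16 (SE 0.72; edgeR adjusted p = 0.978), so the sign turned with that library.

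**Figure D3:**
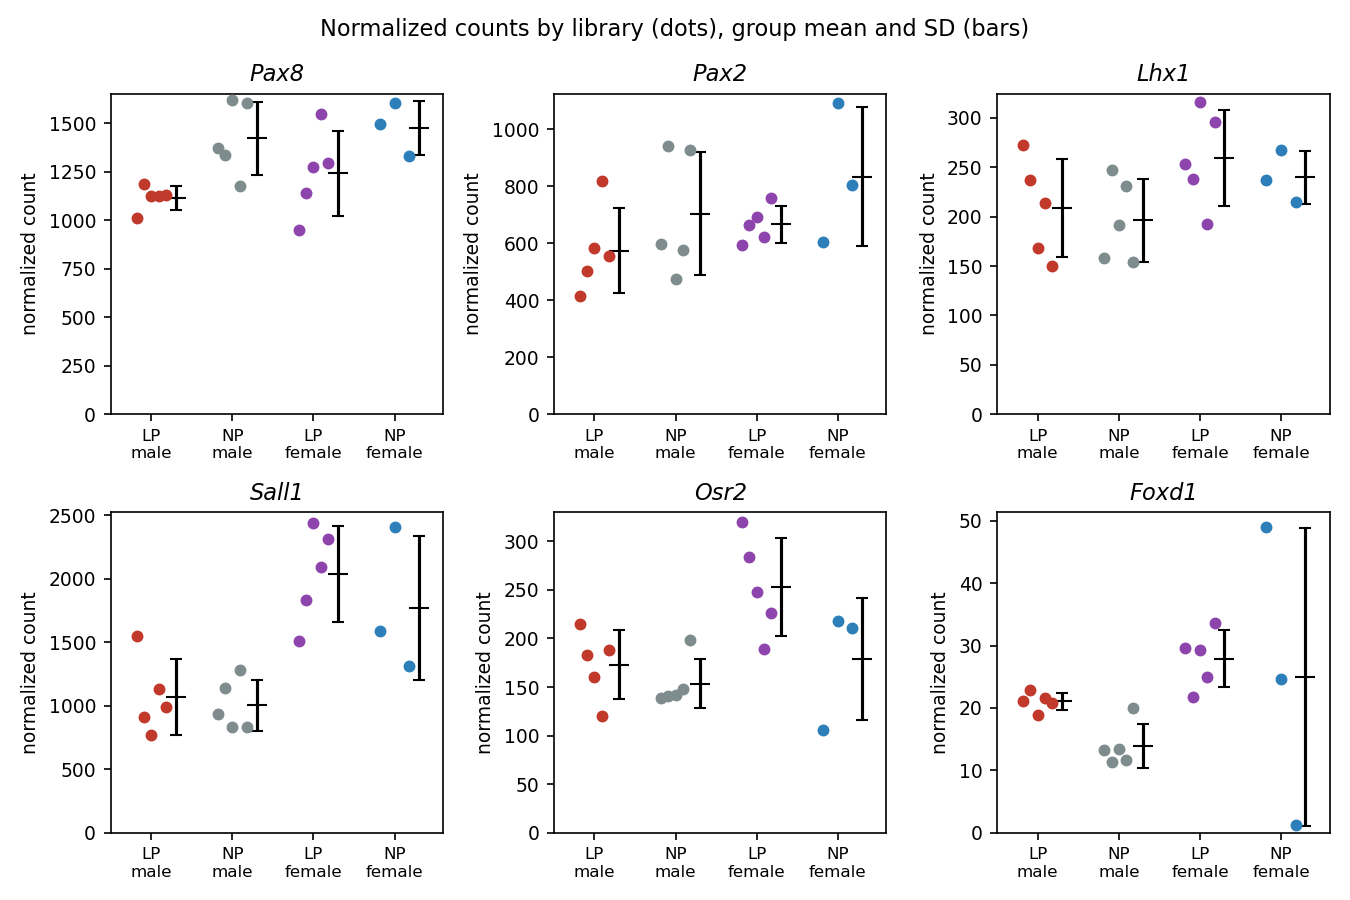
Normalized counts of the 6 members that were tested in at least 1 comparison, with 1 dot per library, ordered by replicate number within a group, and the group mean with its SD as a bar. *Pax8* in LP males (1013 to 1186) sits below all NP males but 1, *Foxd1* in NP female 3 is at 1.21, and *Sall1* in females (1317 to 2442) lies above all males but LP male 1.

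The diet effects were also compared between the sexes. Of the 5 members tested in both, 5 had the same sign of the LP minus NP difference in males and females, beside 56.8% of 12665 genes. *Pax8* and *Pax2* were lower in LP mice and *Osr2*, *Sall1* and *Lhx1* higher, but none of these differences was called, and the signs of *Sall1* and *Lhx1* in males turned without LP male 1. In the test of the interaction 0 of 5 members were called, beside 0.0158% of genes, with 0 at an unadjusted p under 0.05 and an edgeR adjusted p of at least 0.979. DESeq2 also called 0 of the members for the interaction. *Foxd1* is not among these 5. Without NP female 3 its interaction was −0.99 (SE 0.36; unadjusted p = 0.0136; edgeR adjusted p = 0.999). Without the 3 libraries that stand apart, the log2 fold change for diet in females was −0.18 for *Pax8*, −0.30 for *Pax2*, 0.09 for *Lhx1*, 0.19 for *Sall1* and 0.44 for *Osr2*, with an edgeR adjusted p of at least 0.972. For *Foxd1* it was −0.33 (SE 0.38; edgeR adjusted p = 0.972), against 0.59 in males. The interaction of *Foxd1* was then −0.92 (SE 0.39; unadjusted p = 0.0303; edgeR adjusted p = 0.999).

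Between males and females, over both diets, 1 of 5 members differed. *Sall1* was higher in females, with a log2 fold change, males minus females, of −0.88 (SE 0.15; edgeR adjusted p = 0.000201), a level 1.85 times that of males. The mean normalized count was 1037 ± 242 (SD, n = 10) in males and 1937 ± 437 (SD, n = 8) in females. In NP mice every female, at 1317 to 2404, lay above every male, at 829 to 1284, and in LP mice the only overlap was LP male 1 at 1546 against LP female 1 at 1508. Members higher in females were 1 of 5 beside 20.4% of genes, and members higher in males were 0 of 5 beside 18.2%, so a difference of this kind was common among all genes. No member had every female above every male within both diets, beside 3.27% of genes.

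The difference in *Sall1* held in each diet. The exact permutation test gave p = 0.0159 in LP mice and p = 0.0179 in NP mice, the latter the smallest it can give, and p = 0.000213 over both when labels were permuted within each diet. Leaving out each of the 18 libraries in turn kept the log2 fold change between −0.97 and −0.74 and the edgeR adjusted p between 5.67e-05 and 0.000831. Without the 3 libraries that stand apart the log2 fold change of *Sall1* was −1.05 (edgeR adjusted p = 8.82e-05).

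The other 4 members tested had log2 fold changes of the same sign, short of the threshold. The log2 fold change, males minus females, was −0.40 for *Osr2* (SE 0.16; 95% interval −0.73 to −0.07; edgeR adjusted p = 0.0545), −0.31 for *Lhx1* (SE 0.14; 95% interval −0.61 to −0.02; edgeR adjusted p = 0.0863), −0.24 for *Pax2* (SE 0.16; 95% interval −0.57 to 0.10; edgeR adjusted p = 0.252) and −0.12 for *Pax8* (SE 0.09; 95% interval −0.30 to 0.07; edgeR adjusted p = 0.331). *Osr2* passed when LP male 1, LP female 4, NP male 5 or NP female 1 was left out, with an edgeR adjusted p of 0.00842 without NP female 1, and also with DESeq2 (adjusted p = 0.0459). Without the 3 libraries that stand apart the value of *Osr2* was −0.23 (edgeR adjusted p = 0.319). When single libraries were left out, *Lhx1* passed only without LP male 1, with an edgeR adjusted p of 0.0484. By exact permutation within diets p was 0.0527 for *Osr2*, 0.0359 for *Lhx1*, 0.167 for *Pax2* and 0.266 for *Pax8*.

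Within each diet, *Osr2* gave different values. LP females (189 to 319.5) and LP males (120.0 to 215.0) differed with an exact permutation p of 0.0159, and NP females (106 to 218) and NP males (139 to 198) with p = 0.571. The test of the interaction for *Osr2* gave a log2 difference of 0.33 (SE 0.32; edgeR adjusted p = 0.979), so that the diets are not shown to differ in it. *Foxd1*, with NP female 3 in the fit, gave −0.60 (SE 0.36; edgeR adjusted p = 0.207 with edgeR's own filter), and without that library it gave −0.91 (SE 0.18; edgeR adjusted p = 0.000906), higher in females.

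**Figure D4:**
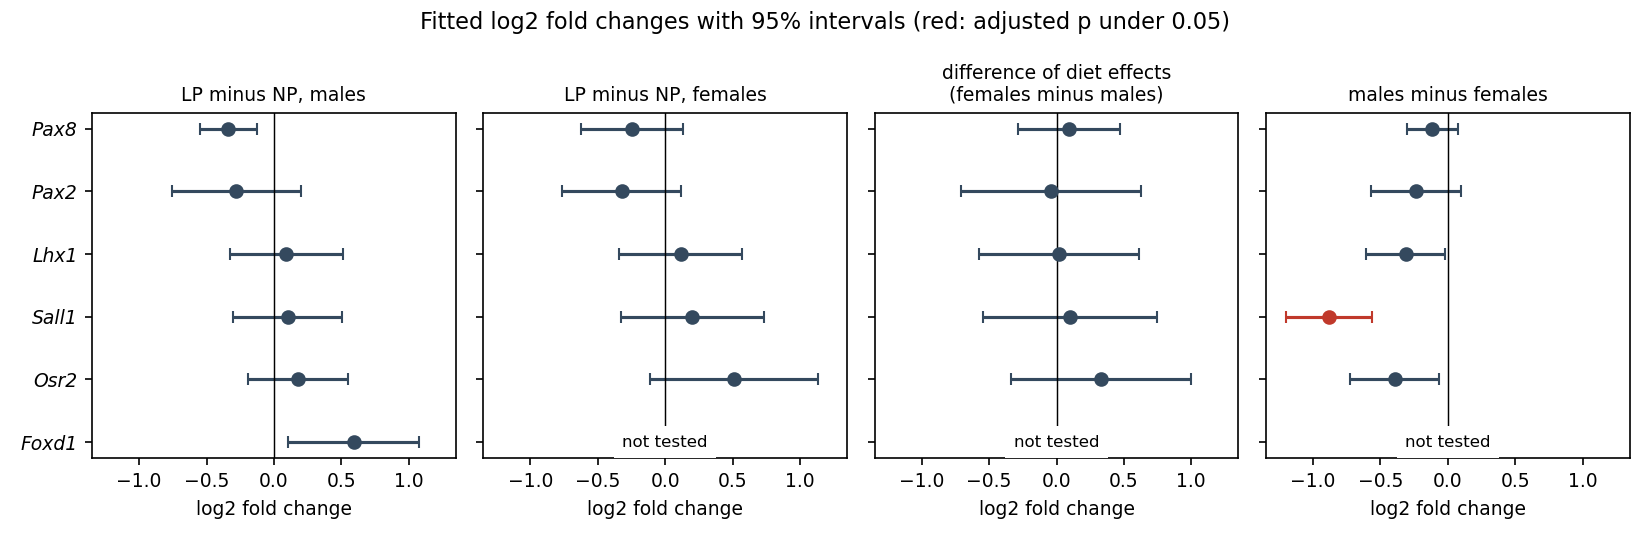
Fitted log2 fold changes of the 6 members in the 4 comparisons, with 95% intervals, where red marks an edgeR adjusted p under 0.05. Only *Sall1* between males and females is red, at −0.88, and *Foxd1* has a value in males alone because NP female 3 had 1 read.

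Among 54 other regulators of kidney development, the same division between diet and sex was seen. In males 38 of the 54 were tested and 0 were called for diet, with a median log2 fold change of 0.08 beside 0.00 over all genes, and in females 43 were tested and 0 were called, with a median of −0.02 beside −0.01. At an unadjusted p under 0.05 there were 2 of 38 in males, beside 3.81% of all genes, and 6 of 43 in females, beside 4.17%. *Gata3*, a ureteric bud and collecting duct factor, had the smallest unadjusted p in females, 0.00252, with a log2 fold change of −0.64 (SE 0.16; edgeR adjusted p = 0.886), and 0.09 (SE 0.17) in males.

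Between the sexes, 20 of 38 regulators tested were higher in females, beside 20.4% of all genes, and 2 in males, beside 18.2%, with a median log2 fold change, males minus females, of −0.56 beside −0.06 over all genes. By role, those higher in females were 3 of 6 progenitor and mesenchyme genes, 2 of 2 of the early nephron, 6 of 11 of the ureteric bud and collecting duct, 5 of 11 of the nephron segments, 4 of 5 of the podocyte and 0 of 3 of the stroma. The smallest adjusted p-values belonged to *Tfap2b* (−0.72, SE 0.11), a distal tubule factor, *Pou3f3* (−0.74, SE 0.11), a factor of the loop and distal tubule, *Gata3* (−0.67, SE 0.12), *Sim1* (−0.77, SE 0.15) and *Six5* (−1.03, SE 0.20). Of those higher in males, *Hnf4a*, a factor of the proximal tubule, had the smallest adjusted p (0.33, SE 0.08; edgeR adjusted p = 0.00404).

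Among the most abundant regulators of the remaining roles, *Tfcp2l1* of the collecting duct differed between males and females by −0.27 (SE 0.17) on the log2 scale, *Eya3* and *Dach1* by 0.14 (SE 0.09) and −0.25 (SE 0.15), *Meis2* of the stroma by −0.36 (SE 0.24), and *Foxc1* of the podocyte by −0.23 (SE 0.26). None of these 5 passed the threshold. *Hes1* and *Sox4*, genes of the early nephron, did, at −0.56 (SE 0.12; edgeR adjusted p = 0.0018) and −0.91 (SE 0.26; edgeR adjusted p = 0.0109).

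**Figure D5:**
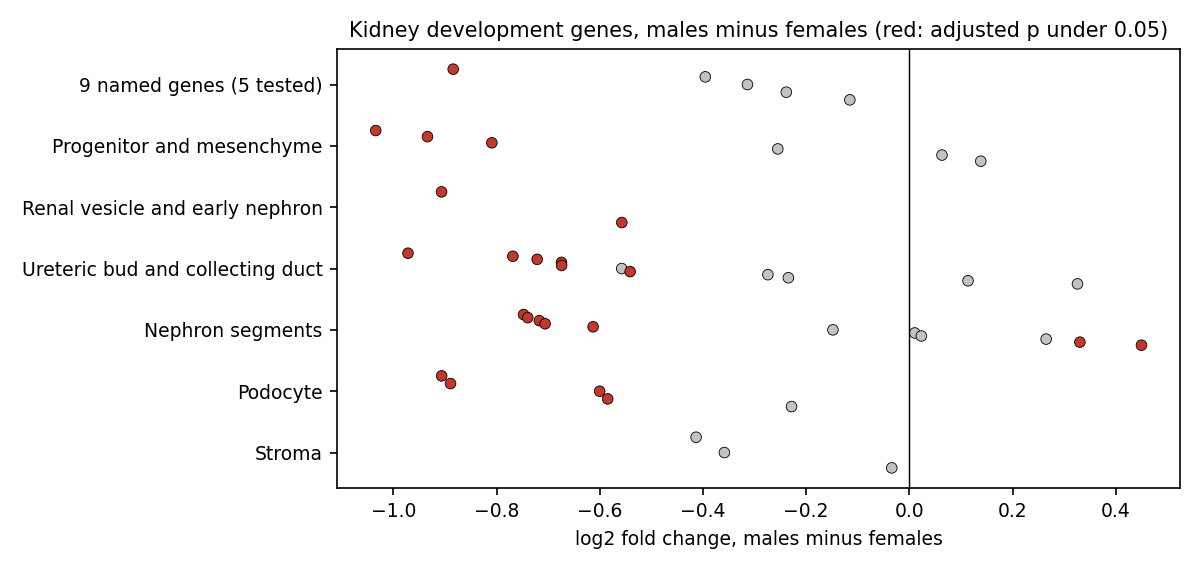
Fitted log2 fold changes, males minus females, of the members and of 38 other kidney development regulators by role, with 1 dot per gene and red for an edgeR adjusted p under 0.05. Of the 38, 20 red dots lie to the left of 0 (higher in females) and 2 to the right.

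Markers of kidney cell types moved with the same contrast as *Sall1*. Podocyte markers were higher in females in 5 of 5 genes, with a summed level of 262 to 544 CPM in females and 153 to 262 CPM in males, and the defining gene *Nphs1* differed by −1.11 on the log2 scale. Markers of the distal convoluted tubule were higher in females in 3 of 3 genes, of the intercalated cell in 4 of 4, of the thick ascending limb in 3 of 4, of the principal cell in 4 of 6, and of the inner medulla and thin limb in 3 of 4. Of all genes tested, 20.4% were called higher in females and 18.2% higher in males. Of the proximal tubule markers 2 of 7 were higher in males. By sign, 3 of the 7 lay above 0 and 4 below, with a median log2 fold change, males minus females, of −0.002. Their summed levels were 11350 to 13980 CPM in males and 7796 to 12690 CPM in females. *Slc34a1*, 1 of the 2 called, had the highest median of the list, 5940 CPM. Of the stroma markers 0 of 5 differed, and of the endothelium markers 0 of 4. The part of these cell types in the *Sall1* difference was not tested. The kidney label was met by all libraries, with the proximal tubule gene *Slc34a1* at 3551 to 7587 CPM.

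In the diet comparison of males, 0 of the marker genes were called. Stroma markers had log2 fold changes above 0 in 5 of 5 genes (median log2 fold change 0.44, with a median summed level of 172 CPM in LP and 108 CPM in NP and overlapping groups), and podocyte markers in 5 of 5 (median 0.27). Interferon response genes were below 0 in 7 of 7 (median −0.28, with a summed level of 594 to 897 CPM in LP and 744 to 1209 CPM in NP), the sign of *Pax8*. The median was 0.27 for the distal convoluted tubule (above 0 in 3 of 3), 0.10 for the proximal tubule, 0.09 for the endothelium, 0.07 for the thick ascending limb, 0.04 for the intercalated cell, −0.06 for the principal cell and −0.21 for the inner medulla and thin limb. In females, stroma markers were below 0 in 4 of 5 genes (median −0.24), and podocyte markers above 0 in 3 of 5 (median 0.03). Interferon response genes in females were below 0 in 6 of 6 tested (median −0.54). The part of these markers in the *Foxd1* and *Pax8* values was not tested.

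The members were last followed along the libraries, as deviations from the group mean of log2(CPM + 1), over 18 libraries. Of 70 relations among the 5 members with at least 10 counts throughout and 12 marker lists, 1 passed Benjamini-Hochberg adjustment over the 70. *Lhx1* rose and fell with the summed endothelium markers (Pearson r = 0.81, permutation p = 5e-05, adjusted p = 0.0035; Spearman rho = 0.81, permutation p = 0.0001), and r was 0.84 without the 2 libraries farthest from the median, NP female 3 and LP male 3, and 0.85 without the 3 libraries that stand apart. *Sall1* and *Lhx1* were the pair of members most alike, at r = 0.69 (permutation p = 0.00488, adjusted p = 0.0925). *Sall1* also had r = 0.72 with the endothelium list and 0.66 with the podocyte list (adjusted p = 0.0961 for both), and *Pax8* had r = 0.70 with the interferon list (adjusted p = 0.0925), which was 0.52 without the 3 libraries that stand apart. *Lhx1* had r = 0.64 with the podocyte list and 0.63 with the stroma list (adjusted p = 0.0925 for both). The *Lhx1* values use counts without the reads shared with *Lhx1os*.

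Across 12665 genes, those most like each member in these deviations were *Cacna1c* (r = 0.86), *Rab15* and *Ano10* for *Pax8*, *Fermt1* (0.92), *Epb41l1* and *Muc20* for *Pax2*, *Cep43* (0.83), *Flacc1* and *2900076A07Rik* for *Osr2*, *Parg* (0.91), *Ganc* and *Sf3b1* for *Sall1*, and *Slf2* (0.94), *Adamts7* and *Zswim8* for *Lhx1*. They are the highest 3 of 12665 correlations for each member over 18 libraries, which share depth and composition, and none of the 15 genes was a member or belonged to the other 54 regulators.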

How the data were processed

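Kidney RNA of 18 mice was sequenced, 1 library per mouse. The files deposited by the authors hold raw read counts for every gene. Poly(A)-selected, non-directional libraries were trimmed, aligned to GRCm39 with STAR and counted over GENCODE vM36. The column counted without strand was used. Depth is given with the samples. Reads not assigned to a single gene, among them unmapped reads and reads on several genes, were 28.6% to 36.1% and were left out. Names, positions and exon lengths came from GENCODE vM39 by stable identifier (78168 of 78239 genes matched).

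Groups were compared in R 4.3.3 with edgeR 4.0.16 (quasi-likelihood test), with TMM normalization, at least 10 counts in every library compared, Benjamini-Hochberg adjustment over all genes tested and a call at an adjusted p under 0.05. LP was compared with NP within each sex. The interaction and the sexes were tested over all 4 groups. Normalized counts are counts divided by DESeq2 1.42.0 size factors. An exact permutation test over mice, two-sided, was run for each member on log2(normalized count + 1). Correlations used 100000 permutations within groups. The fit was tested on simulated data.

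The members and lists were chosen with earlier results of these data known. Named genes are the 9 members, in a wider list of 54 regulators the 2 most abundant per role and at most 5 called each way per comparison, and the 3 genes most like each member. Any further gene was named after its values had been seen. Some genes that this rule names are not reported here. The marker lists for urothelium, adrenal cortex, leukocyte and fat had 0 genes called in any comparison, but at most 1 gene of each was tested. Summed fat markers ranged from 1.795 to 80.62 CPM in males and from 2.684 to 233.5 CPM in females. Summed urothelium markers ranged from 2.67 to 100.8 CPM in males and from 4.559 to 51.84 CPM in females. Of the glucocorticoid response genes, 2 of 5 were higher in females, beside 20.4% of all genes. Of the interferon response genes 0 of 6 tested differed between the sexes.

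Replicate numbers come from the sample titles, and nothing in the labels says that they pair mice, so the tests were unpaired. After group means were removed, same-numbered LP and NP libraries had a median correlation of −0.155 in males (−0.297 to 0.327) and −0.438 in females (−0.607 to −0.388). Each female pair holds a library that stands apart, so the female values cannot tell whether mice were paired. Alternatives were no filter, edgeR's filterByExpr, DESeq2 size factors, DESeq2's Wald test, a replicate block, both strand columns summed, all 4 groups in 1 model, leaving out each library, and leaving out the 3 libraries that stand apart. Tables and plots were made with Python 3.11.15 (scipy 1.17.1, numpy 2.4.6, pandas 2.3.3, matplotlib 3.10.9).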

Additional observations from a re-analysis of the deposited data

Results flagged for a closer look

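Single libraries lay far from the rest of their group for 3 members, of 25 groups of member values examined, where chance alone marks about 1 in 20. *Osr2* in NP male 5, at 198.1 normalized counts, lay above the other 4 NP males. *Foxd1* in NP male 5 did the same, at 20.0 normalized counts. *Six2* in LP male 5, at 1.89 normalized counts from 2 reads, was the only library with any read. Each lay farther from its nearest neighbour than Dixon's 95% limit allows for its group, which for *Six2* holds for any single library with reads among others at 0.

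Reads that the comparisons did not use were found for 2 members in the strand columns of the tables. For *Lhx1*, 33.2% of the reads in those columns also overlapped a gene on the other strand and were not counted, and for *Pax8* the share was 11.1%.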

How the results depend on the processing

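No member was called for diet or for the interaction under any alternative run, and *Sall1* was called between the sexes under all of them. Members called between the sexes rose from 1 to 2 with DESeq2 and without the 3 libraries that stand apart, and lay between 1 and 3 when each library was left out (2 without LP female 4, NP male 5, NP female 1 or NP female 3, and 3 without LP male 1).

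Counts over all genes moved more. In males 5 genes were called for diet, against 9 with no filter, 2 with the replicate block, 1 with all 4 groups in 1 model, 19 with DESeq2 and 2 to 6 when each library was left out. In females 0 were called (564 at an unadjusted p under 0.05, 168 with the replicate block and 2638 without NP female 2), against 3 with no filter, 2 with all 4 groups, 1 without the 3 libraries, 9 with DESeq2 and 0 to 2 when each was left out. For the interaction 2 were called, against 0 with the replicate block, 0 with both strand columns, 0 without the 3 libraries, 5 with DESeq2 and 0 to 4 when each was left out. The cause of these moves was not tested.

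Some signs turned. *Foxd1* in females, for diet, was 0.16 with edgeR's own filter and −0.39 without NP female 3. The interaction of *Lhx1* was −0.018 without the 3 libraries. When each library was left out, the male diet value ranged from −0.066 to 0.21 for *Sall1* and −0.022 to 0.19 for *Lhx1*, and the interaction from −0.081 to 0.13 for *Lhx1*, −0.081 to 0.38 for *Sall1*, −0.23 to 0.20 for *Pax2* and −0.00056 to 0.17 for *Pax8*. The replicate block changed no other call, and *Sall1* between the sexes was −0.91 with it (adjusted p = 0.000946).

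*Six2*, *Eya1* and *Osr1* fell below the minimum count at this depth, and *Foxd1* in females did so in 1 library. The cause of these low counts was not tested. The comparison in females, which holds 3 NP mice and the 3 libraries that stand apart, had the widest spread (common biological coefficient of variation 0.307, against 0.204 in males). The cause of this spread was not tested, and members could have differed within the intervals given.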

Other observations

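Among the 16 regulators of the wider list that were too low to test over all 18 libraries, *Cited1*, a gene of the self-renewing cap mesenchyme, did not overlap between the sexes (among the 12665 genes tested, 3.27% had every female above every male within each diet). Females had 29, 80, 33, 19 and 22 reads in LP mice 1 to 5 and 36, 26 and 79 in NP mice, and males had 4, 4, 7, 4 and 1 in LP mice and 5, 0, 0, 0 and 1 in NP mice. The mean was 30.9 and 52.4 normalized counts in LP and NP females and 4.14 and 1.41 in LP and NP males. The *Six2* reads, from the same progenitors in the embryo, were 0 in all 8 of those female libraries.

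*Foxd2*, a forkhead gene of the stroma list, had 29, 24, 23, 32 and 14 reads in LP males 1 to 5 and 5, 19, 10, 2 and 11 in NP males, the same direction as *Foxd1* in the same mice. In females it had 21 to 58 reads in LP mice and 28 to 50 in NP mice, and the diet groups overlapped in each sex. Among the same low regulators, *Lef1* in females had 5 to 14 reads in LP mice and 15 to 23 in NP mice. *Sox8* in females had 8 to 13 reads in LP mice and 0 to 4 in NP mice. Both overlapped in males, and 2.96% of the genes tested in females did not overlap by diet. *Cited1*, *Foxd2*, *Lef1* and *Sox8* were picked after their values were seen and were not tested.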
